A study of Mus musculus with 72 samples.

Results

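The genes of MHC class I antigen presentation were followed in the brains of Ts1Cje mice and their disomic littermates. The 9 members are H2-K1, H2-D1, H2-T23, B2m, Tap1, Tap2, Tapbp, Psmb8 and Psmb9, and all probe sets that carry one of these symbols alone were taken. They were selected on measured values in part, since H2-K1 differed between the genotypes at postnatal day (P) 84, and the genotype values at P84 are given as a description, with no p-value and with nothing read from their counts. Among the 18194 genes with a probe set of their own, 8 of the members were measured, through 25 probe sets; both probe sets of H2-T23 also match the pseudogene H2-T-ps, and no value is given for that gene. Ts1Cje mice carry an additional copy of a segment of mouse chromosome 16, in every cell, on a C57BL/6 background. By the paper they also carry a deletion on another chromosome, which leaves Itgb8 and Sp8 among others monosomic. The genotypes therefore differ in more than the triplicated segment. B2m lies on chromosome 2 and the other members on chromosome 17, so none lies in the triplicated segment. The groups were Ts1Cje and disomic C57BL/6 littermates from matings of Ts1Cje males with C57BL/6 females, all labelled female, at P1, P15, P30 and P84. Each of these groups was measured in cerebral cortex, cerebellum and hippocampus on 3 arrays, labelled as biological replicates, which made 24 groups and 72 arrays of total RNA. These are whole regions, so fewer cells of a type and less RNA per cell cannot be told apart.

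Class I molecules present peptides from inside the cell to cytotoxic T cells and inhibitory receptors. A heavy chain (H2-K1 and H2-D1 are the classical ones, H2-T23 encodes the nonclassical Qa-1) pairs with the light chain beta-2 microglobulin, the product of B2m. Peptides are cut by the proteasome, whose inducible catalytic subunits include Psmb8 and Psmb9, are carried into the endoplasmic reticulum by the Tap1 and Tap2 transporter, and are loaded with the help of tapasin, the product of Tapbp. Interferons raise the transcription of these genes in many cell types, and neurons are known for low class I levels, with microglia and endothelial cells as other sources in the brain.

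The promoters of the heavy chains and of B2m are shown because the 2 heavy chains varied together across the groups while B2m followed another course. RefSeq promoter windows (GRCm38.p6) were matched for 8 of the 9 members; Tap2 was not matched. In the lines below, capitals in H2-K1 and H2-D1 mark first a palindromic kappaB site (GGGANTCCC) and then one form of the interferon-stimulated response element (TTTCNNTTC); capitals in B2m mark another form of that element (TTTCNNTTT) on the reverse strand. The H2-K1 window lies at chr17:34000409-34000477 on the minus strand, that of H2-D1 at chr17:35262904-35262972 on the plus strand and that of B2m at chr2:122147529-122147577 on the plus strand.
H2-K1: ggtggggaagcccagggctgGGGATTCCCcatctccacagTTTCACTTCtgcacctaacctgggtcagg
H2-D1: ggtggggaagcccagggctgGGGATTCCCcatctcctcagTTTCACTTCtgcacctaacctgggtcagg
B2m: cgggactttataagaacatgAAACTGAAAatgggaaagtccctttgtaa

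The 2 heavy-chain windows were identical at 68 of 69 bases. Both strands of the 250 bases before each start were searched, and at these places the motifs did not overlap one another. The kappaB palindrome was found in 209 of 32817 promoter windows (0.637%), the TTTCNNTTC form in 6.31% and the TTTCNNTTT form in 9.37%. Among the members the palindrome and the TTTCNNTTC form were found in H2-K1 and H2-D1 alone, the TTTCNNTTT form in B2m and H2-T23, and a gamma-activated site (TTCNNNGAA, 7.01% of windows) in Psmb8 alone. Tap1 and Psmb9 start 226 bases apart on opposite strands and share this stretch. These matches describe letters in the windows only. Other forms of a kappaB site were not searched, so the lack of the palindrome in B2m does not mean that it has no such site.

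Values are log2 expression after gcRMA, and array medians lay between 3.2 and 3.37; where a probe set lay below the array median its signal may not exceed background, so differences of such probe sets have no established size. Of the 25 probe sets, 6 had a mean of at least 5 over all arrays (1 for H2-K1, 2 each for H2-D1 and B2m, 1 for Tapbp), whereas 16 had a mean below the array medians and 11 lay below the median on every array. All 4 Tap1 probe sets and the single one of Psmb9 were among those 11, and Tap2 and both probe sets of Psmb8 averaged below the medians too. The H2-K1 and H2-D1 probe sets ending in _x_at can share sequence with other class I genes. On 69 of the 72 arrays Eif2s3y exceeded Xist although every animal is labelled female; the other 3 were the P1 arrays of Ts1Cje replicate 3. The labelled regions separated along an axis of their own expression differences, on which hippocampus lies near 0 and cerebellum near 1, except for disomic replicate 3 at P15: its cerebellum array stood at -0.0244 and its hippocampus array at 1.04. A further 3 arrays of disomic replicate 3 were dim (P1 cerebellum, P84 cerebral cortex and P84 hippocampus), and values without these 5 arrays are given beside the main results they touch.

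By its brightest probe set H2-K1 was highest in the cerebellum at every age, and its mean there was higher at each later age. Probe set 1451931_x_at averaged 6.55 ± 0.68 at P1, 7.24 ± 0.91 at P15, 8.14 ± 0.18 at P30 and 8.71 ± 0.33 at P84 in the cerebellum (log2, SD, n = 6, both genotypes). In the hippocampus the same ages gave 5.36 ± 0.17, 5.97 ± 0.87, 5.75 ± 0.38 and 5.95 ± 0.53, and in the cerebral cortex 5.67 ± 0.22, 5.75 ± 0.17, 6.10 ± 0.36 and 6.35 ± 0.71. The wide spread at P15 came from the 2 displaced arrays; without them P15 averaged 7.61 in the cerebellum and 5.63 in the hippocampus (n = 5 each). Cortex and hippocampus lay within each other's spread at P15, P30 and P84.

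H2-D1, the other classical heavy chain, followed the same order by its brightest probe set. Probe set 1425545_x_at averaged 8.37 ± 0.45, 9.06 ± 1.00, 9.80 ± 0.25 and 10.3 ± 0.35 in the cerebellum at P1, P15, P30 and P84. It averaged 7.03 ± 0.20, 7.58 ± 0.93, 7.38 ± 0.47 and 7.73 ± 0.61 in the hippocampus, and 7.22 ± 0.42, 7.37 ± 0.25, 7.83 ± 0.28 and 8.13 ± 0.53 in the cerebral cortex. Without the displaced arrays its P15 level was 9.46 in the cerebellum and 7.21 in the hippocampus. Across the 24 group means the H2-K1 and H2-D1 probe sets correlated at r = 0.993, a description over arrays shared by both and over probe sets that can share sequence.

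B2m, the common light chain, had a different course. At P84 probe set 1449289_a_at averaged 10.3 ± 0.58 in the cerebellum, 10.1 ± 0.50 in the hippocampus and 10.4 ± 0.19 in the cerebral cortex, within each other's spread. At P1 the same regions averaged 9.29 ± 0.27, 8.26 ± 0.27 and 7.76 ± 0.59. Its correlation with H2-D1 over the 24 group means was r = 0.364 and with H2-K1 r = 0.348, whereas both B2m probe sets correlated at 0.993. Tapbp varied least of these genes, between 6.30 ± 0.22 (P15 cerebral cortex) and 7.29 ± 0.31 (P84 cerebellum).

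**Figure D1:**
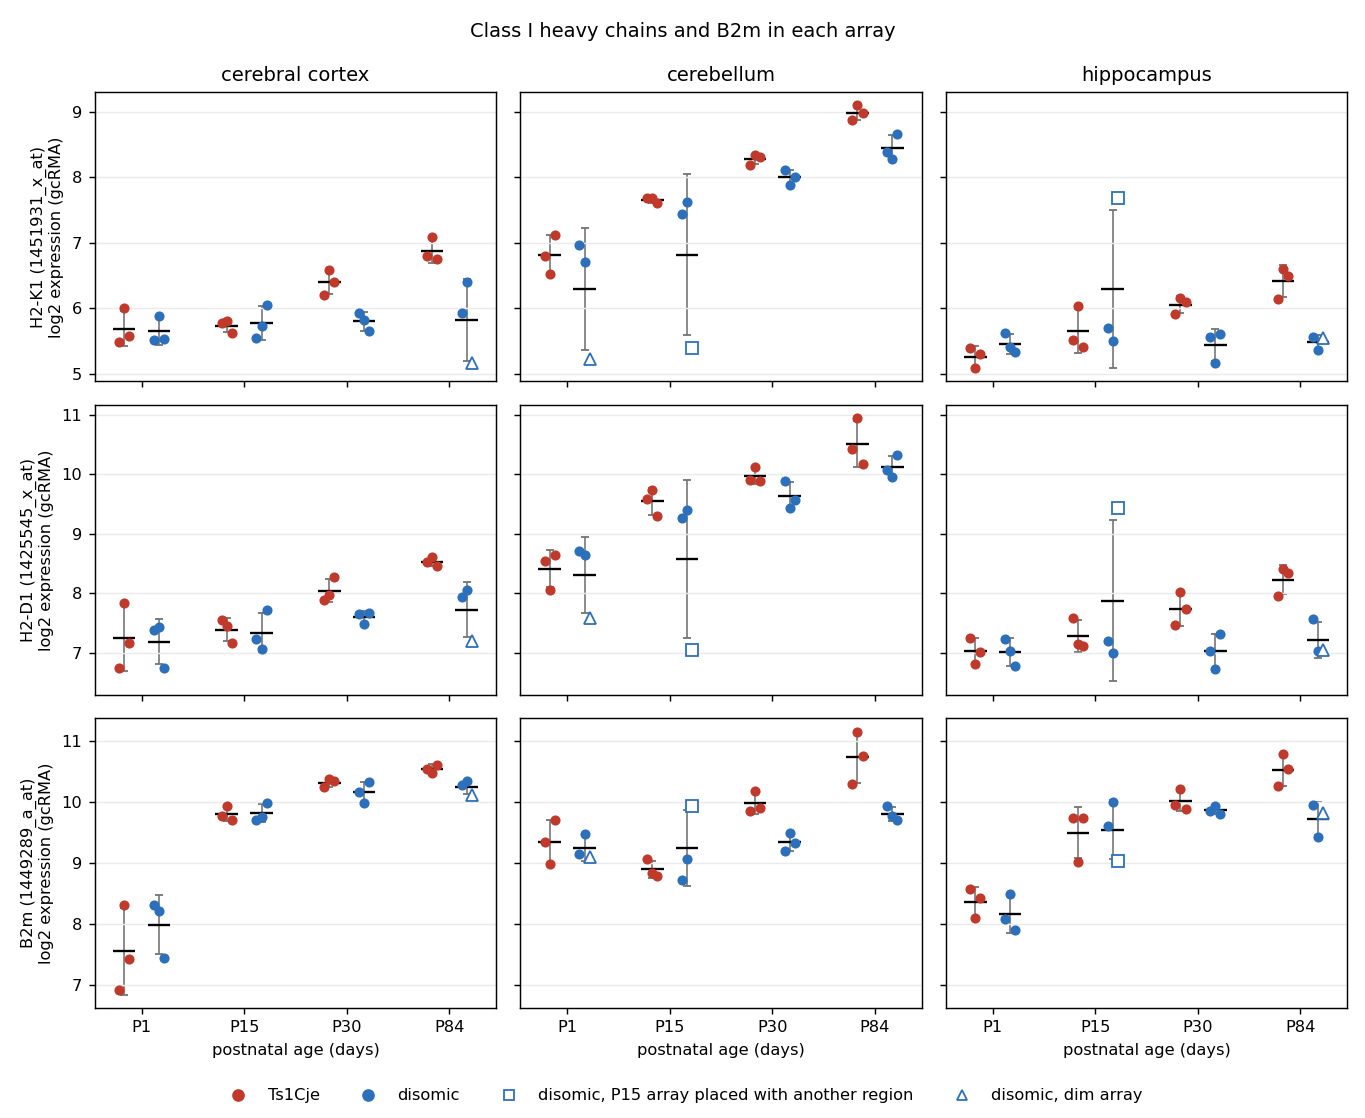
Log2 expression (y axis, gcRMA) of H2-K1, H2-D1 and B2m on each array by age (x axis, postnatal days) and region; points are arrays, with Ts1Cje to the left of disomic, bars the group means and whiskers the SD (n = 3). H2-K1 and H2-D1, each by its brightest probe set, are highest in the cerebellum at each age, B2m in the cerebral cortex is lowest at P1, and the open squares (disomic replicate 3, P15) stand with the other region.

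Differences between ages were tested on the mean of both genotypes with limma over all 45101 probe sets. Calls needed both an adjusted p (Benjamini-Hochberg) no higher than 0.05 and a moderated t of size 4 or more. Over 12 contrasts the members gave 30 calls, and all were higher at the later age. From P1 to P84, 11 of 25 probe sets were higher in the cerebellum, 5 in the hippocampus and 6 in the cerebral cortex, beside 13.6%, 10.4% and 11.3% of all probe sets called higher. Between P1 and P15 these background shares were 10.9%, 8.68% and 10.8%, and the later steps had lower ones. Several of these probe sets stand for one gene and can share sequence, so the counts are not independent. The 11 in the cerebellum belong to H2-K1, H2-D1, B2m, Tap2 and Tapbp. The regions are therefore not ranked by these counts, and no p is attached to them. The P84 arrays took part in the choice of members, which bears on these contrasts too.

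In the cerebellum the heavy chains rose most. H2-K1 was 2.16 higher on the log2 scale at P84 than at P1 (SE 0.26, adjusted p = 3.35e-10), and H2-D1 1.95 higher by 1425545_x_at (SE 0.28, adjusted p = 2.94e-08) and 1.98 by 1451784_x_at (adjusted p = 8.30e-10). The dimmer H2-D1 probe set 1451683_x_at was 2.40 higher (SE 0.24, adjusted p = 1.16e-12). The weaker H2-K1 probe set 1425336_x_at was 1.98 higher; its P1 mean of 2.87 lay below the array median. B2m rose by less there, 0.97 (SE 0.18, adjusted p = 8.46e-06), and Tapbp by 0.80 (SE 0.14, adjusted p = 2.37e-06). Without the 5 arrays that stand apart these differences were 1.89 for H2-K1 1451931_x_at, 1.77 for H2-D1 1425545_x_at and 0.94 for B2m 1449289_a_at, and all 3 were still called. The Tapbp call was lost without Ts1Cje replicate 2, and also with the replicate number as a block. Tap2 was 0.71 higher in the cerebellum and 0.48 in the hippocampus, from levels below the array median at both ages. Its hippocampal call was lost without the 5 arrays that stand apart, and also without the dim arrays alone.

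In the cerebral cortex and hippocampus it was B2m that rose most. At P15 the cortical B2m values (1449289_a_at) were 9.76, 9.92 and 9.69 in Ts1Cje and 9.70, 9.75 and 9.97 in disomic mice. At P1 they were 6.91, 8.31 and 7.42 in Ts1Cje and 8.31, 8.21 and 7.43 in disomic mice, so that every P15 array lay above every P1 array. The P15 minus P1 difference was 2.04 in the cortex (SE 0.18, adjusted p = 4.12e-14) and 1.26 in the hippocampus (SE 0.18, adjusted p = 6.82e-08). In the cerebellum it was -0.22 and was not called (95% interval -0.58 to 0.14), and without the 5 arrays that stand apart it was -0.43, also not called (adjusted p = 0.0580). By P84 the difference from P1 reached 2.62 in the cortex, a 6.16-fold higher value (adjusted p = 2.92e-18), and 1.87 in the hippocampus (adjusted p = 7.10e-13).

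The heavy chains changed less in these 2 regions. H2-K1 1451931_x_at was 0.68 higher at P84 in the cortex (adjusted p = 0.0268) and 0.59 in the hippocampus (adjusted p = 0.0664), and neither met the criteria. H2-D1 1425545_x_at differed by 0.91 in the cortex and 0.70 in the hippocampus, also not called. Without the 5 arrays that stand apart all 4 of these differences were called, at 0.85 in the cortex (adjusted p = 4.79e-08) and 0.58 in the hippocampus (adjusted p = 8.81e-05) for H2-K1 1451931_x_at, and at 1.04 and 0.74 for H2-D1 1425545_x_at (adjusted p = 3.27e-07 and 1.45e-04). In the cerebellum the step between P1 and P15 was 0.69 for H2-K1 1451931_x_at and 0.70 for H2-D1 1425545_x_at with all arrays, not called, and without the 5 arrays it was called at 0.77 for H2-K1 1451931_x_at (adjusted p = 1.51e-06) and 0.89 for H2-D1 1425545_x_at (adjusted p = 2.05e-05). H2-K1 1425336_x_at was called in both, at 1.12 in the cortex and 1.28 in the hippocampus, from P1 levels below the array median. Psmb8 1422962_a_at was called at 0.55 in the cortex and 0.59 in the hippocampus, below the median throughout.

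Among single steps, Tapbp rose between P15 and P30 in the cerebral cortex by 0.58 (adjusted p = 0.00667), where 0.778% of all probe sets were called higher. Its P30 values there were 6.83, 6.89 and 6.90 in Ts1Cje and 6.80, 7.09 and 6.77 in disomic mice, all above the P15 values of 6.47, 6.26 and 5.87 in Ts1Cje and 6.34, 6.46 and 6.39 in disomic mice. The Tapbp call was lost without any one of Ts1Cje replicates 2 and 3 and disomic replicates 1 and 2. Over the same step in the cerebellum H2-D1 1451683_x_at rose by 1.17 and H2-K1 1425336_x_at by 0.79 (background 2.02%; 0.87 and 0.76 without the 5 arrays, both called), and the hippocampus had a background of 0.951%. No member was called between P30 and P84 in any region, although 10 member probe sets in the cerebellum had an unadjusted p under 0.05 in limma. That negative did not hold without the 5 arrays that stand apart, when H2-K1 was called in the cerebellum by 1451931_x_at (0.57, adjusted p = 0.00125) and 1425336_x_at (0.61, adjusted p = 0.00550), the second also without the 3 dim arrays alone (adjusted p = 0.00748). The shares of all probe sets called higher at P84 over P30 were 0.255% for cerebellum, 0.0443% for hippocampus and 0.0798% for cortex.

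**Figure D2:**
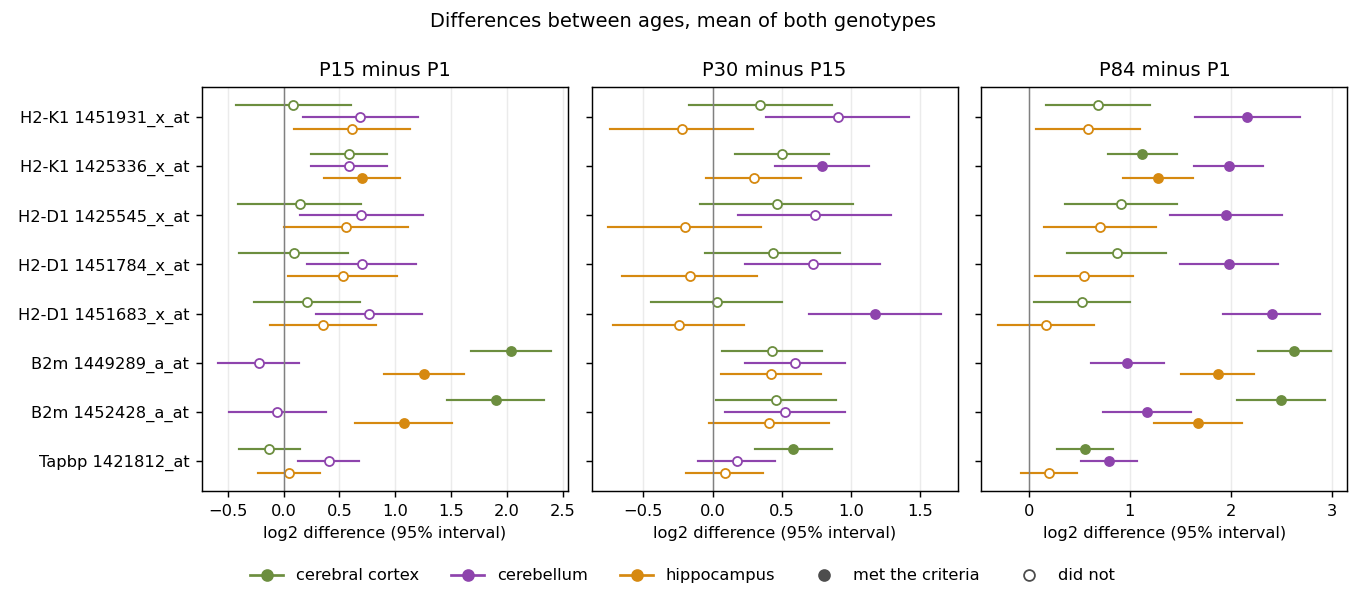
Log2 differences between ages (x axis, with 95% intervals from limma) for 8 member probe sets (y axis) in 3 regions; filled points met the criteria. The P15 minus P1 difference of B2m is -0.22 in the cerebellum (all arrays; -0.43 without the 5 that stand apart) and 2.04 in the cerebral cortex, while the heavy chains have their widest P84 minus P1 difference in the cerebellum.

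The difference between regions in the P1 to P84 change was then tested in the same fit, a comparison added after the data were seen. Between cerebellum and cerebral cortex it was 1.48 for H2-K1 1451931_x_at (adjusted p = 0.00125) and 1.87 for H2-D1 1451683_x_at (adjusted p = 1.38e-05). For B2m it ran the other way, -1.65 by 1449289_a_at (adjusted p = 8.37e-07) and -1.32 by 1452428_a_at (adjusted p = 6.23e-04). These were 2 calls higher and 2 lower, beside 7.46% and 6.22% of all probe sets. Without the 5 arrays that stand apart these differences were 1.04 for H2-K1 1451931_x_at, 1.5 for H2-D1 1451683_x_at, -1.72 for B2m 1449289_a_at and -1.40 for 1452428_a_at, each still called. The B2m difference by 1449289_a_at was called with each of the 6 replicate numbers left out, that of H2-D1 in 5 of 6 (not without Ts1Cje replicate 2), that of H2-K1 in 3 (not without any one of Ts1Cje replicates 1, 2 and 3), and that of 1452428_a_at in 2 (lost without any one of Ts1Cje replicates 1 and 3 and disomic replicates 1 and 2). Between cerebellum and hippocampus 4 heavy-chain probe sets were called higher (background 6%), of which H2-D1 1451683_x_at, at 2.22, was called in 6 of 6. None was called between hippocampus and cerebral cortex (2 had an unadjusted p under 0.05; background 2.07% in either direction).

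In disomic mice alone the cerebellar rise of the heavy chains was also called. H2-K1 1451931_x_at was 2.15 higher at P84 (adjusted p = 2.79e-06), with 8.38, 8.28 and 8.66 at P84 against 6.96, 6.70 and 5.22 at P1, the last of these from a dim array. Without the 5 arrays that stand apart the difference was 1.61 and was still called. H2-D1 1425545_x_at was 1.81 higher in these mice. In total 6 of 25 probe sets were called higher in the disomic cerebellum (background 9.98%), 3 in the hippocampus (6.63%) and 3 in the cerebral cortex (7.29%). The hippocampal count was 1 without the 5 arrays that stand apart (B2m 1449289_a_at, at 1.53) and the others stayed at 6 and 3.

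Averaged over the 4 ages, 8 member probe sets were higher in the cerebellum than in the cerebral cortex and 6 higher than in the hippocampus, beside 15.2% and 14% of all probe sets. H2-D1 was 1.75 higher in the cerebellum than in the cortex by 1425545_x_at (SE 0.14, adjusted p = 4.44e-16) and 1.96 higher than in the hippocampus. H2-K1 1451931_x_at was 1.69 and 1.91 higher. The dimmer H2-K1 1425336_x_at was 0.39 higher than in the cortex, which was called, and was not called against the hippocampus. Between hippocampus and cortex both heavy chains differed by -0.21 with all arrays, not called, and without the 5 arrays that stand apart both were called lower in the hippocampus, at -0.34 for H2-K1 1451931_x_at (adjusted p = 9.80e-06) and -0.33 for H2-D1 1425545_x_at (adjusted p = 0.00137). Tapbp was 0.29 higher in the cerebellum than in the cortex (SE 0.07, adjusted p = 2.96e-04). This call was lost without any one of Ts1Cje replicates 1 and 3 and disomic replicates 1 and 2. It was also lost without the 3 P1 arrays of Ts1Cje replicate 3 alone. Between hippocampus and cortex 9.39% of all probe sets were called in either direction. B2m did not meet the criteria between any 2 regions (0.02 for cerebellum minus cortex, 95% interval -0.16 to 0.20), an average over ages in which its order changed.

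At P1 alone B2m 1449289_a_at was 1.52 higher in the cerebellum than in the cortex and was called (6.3% of all probe sets were called higher). At P15 the same difference was -0.74 and was called lower (6.96%); without the 5 arrays these differences were 1.56 and -0.91, both called. H2-K1 1451931_x_at was 1.48 higher in the cerebellum than in the cortex at P15 (1.84 without the displaced array), 2.04 at P30 and 2.36 at P84 (2.20 without the dim array), ages at which 7.34%, 8.76% and 8.99% of all probe sets were called higher. With all arrays no member was called between hippocampus and cerebral cortex at any age, against backgrounds of 2.22%, 3.43%, 4.04% and 4.22% at P1, P15, P30 and P84. H2-K1 1451931_x_at was called lower in the hippocampus at P84 without the 5 arrays (-0.58, adjusted p = 8.24e-04).

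Genotype was first compared at P1, P15 and P30, which the choice of members did not use. No member probe set was called in these 9 comparisons. Of all probe sets, 0.0111%, 0.00222% and 0.0133% were called in the cortex at P1, P15 and P30, with 0.0155%, 0.0554% and 0.0177% in the hippocampus and 0.494%, 0.0333% and 0.031% in the cerebellum. Unadjusted p-values under 0.05 numbered 7 at the most, in the P15 cerebellum. At P30 H2-K1 1451931_x_at read 6.21, 6.58 and 6.40 in Ts1Cje cortex, against 5.93, 5.82 and 5.65 in disomic cortex. In the hippocampus of the same age it read 5.91, 6.16 and 6.09 in Ts1Cje, against 5.56, 5.16 and 5.60 in disomic mice. The cerebellum gave 8.19, 8.34 and 8.30 in Ts1Cje and 8.11, 7.88 and 8.0 in disomic mice. The Ts1Cje arrays were above the disomic arrays without overlap in each region, with differences of 0.60 in the cortex (95% interval -0.13 to 1.32), 0.62 in the hippocampus and 0.28 in the cerebellum.

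H2-D1 differed likewise at P30, by 0.44 in the cortex, 0.71 in the hippocampus and 0.33 in the cerebellum (1425545_x_at). Its hippocampal values were 7.46, 8.02 and 7.73 in Ts1Cje, against 7.03, 6.74 and 7.31 in disomic mice. B2m 1449289_a_at was 0.64 higher in the P30 cerebellum, at 9.84, 10.17 and 9.90 in Ts1Cje against 9.19, 9.49 and 9.33 in disomic mice, and 0.16 higher in the other 2 regions. Tapbp differed by -0.01, 0.10 and -0.04 in cortex, hippocampus and cerebellum. Of the 25 member probe sets, 6 in the cortex, 6 in the hippocampus and 4 in the cerebellum had all Ts1Cje arrays above all disomic arrays at P30, beside 4.71%, 4.62% and 4.02% of all probe sets. At P1 these counts were 1, 1 and 0 (backgrounds 3.61%, 2.88% and 4.93%), and at P15 1, 0 and 3 (4.29%, 5.92% and 4.02%). All Ts1Cje arrays lay below all disomic arrays in 2, 1 and 1 member probe sets at P1 (2.67%, 4.52% and 3.67%). For P15 those counts were 1, 4 and 0 (2.96%, 5.66% and 4.58%), and for P30 0, 1 and 0 (4.17%, 4.44% and 6.79%). Most of the probe sets wholly higher at P30 in cortex and hippocampus belong to H2-K1 and H2-D1, and such probe sets can share sequence.

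At P15 the displaced arrays set the values. The disomic cerebellum read 7.44, 7.62 and 5.40 for H2-K1, against 7.68, 7.68 and 7.61 in Ts1Cje, and the fitted Ts1Cje minus disomic difference was 0.84. In the hippocampus disomic replicate 3 read 7.68, above all Ts1Cje arrays (5.51, 6.04 and 5.41), and the difference was -0.64. For H2-D1 1425545_x_at the difference was 0.97 in the cerebellum and -0.59 in the hippocampus with these arrays, and 0.21 and 0.19 without them.

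Averaged over P1, P15 and P30, one member probe set was called, H2-D1 1451683_x_at in the cerebellum, at 0.97 higher in Ts1Cje (SE 0.19, adjusted p = 0.00588; 0.151% of all probe sets were called). Its Ts1Cje cerebellum read 4.58, 3.97 and 4.97 at P1, 5.48, 5.5 and 5.23 at P15 and 6.20, 6.10 and 6.17 at P30. The disomic cerebellum read 3.89, 4.05 and 2.37, then 4.14, 5.19 and 2.85, then 5.45, 5.61 and 5.90. The lowest P1 and P15 values belong to a dim and a displaced array of disomic replicate 3. Without the 3 dim arrays the difference was 0.79 and was not called (adjusted p = 0.0552), and without all 5 it was 0.59 (adjusted p = 0.0373). It was also lost without any one of Ts1Cje replicates 1, 2 and 3 or without disomic replicate 1. The other H2-D1 probe sets and H2-K1 1451931_x_at (0.55, adjusted p = 0.587) were not called. The H2-K1 difference was 0.37 without the 3 dim arrays and 0.13 without all 5. No member was called in the cortex or hippocampus over these ages (0.113% and 0.135% of all probe sets), and the genotype effect differed between regions in 0 member probe sets, and in 0% of all probe sets, for each of the 3 pairs of regions in limma; 2, 0 and 2 member probe sets had an unadjusted p under 0.05 for cerebellum minus cortex, hippocampus minus cortex and cerebellum minus hippocampus.

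At P84, the comparison that entered the choice of members, Ts1Cje means were higher for both heavy chains in all 3 regions. H2-K1 1451931_x_at read 6.79, 7.08 and 6.75 in Ts1Cje cortex, against 5.93, 6.40 and 5.16 in disomic cortex, the last from a dim array. The hippocampus gave 6.13, 6.60 and 6.5 in Ts1Cje and 5.55, 5.36 and 5.54 in disomic mice, and the cerebellum 8.87, 9.10 and 8.99 in Ts1Cje and 8.38, 8.28 and 8.66 in disomic mice. The H2-K1 groups did not overlap in any region, and the differences were 1.05, 0.92 and 0.54. Over all 25 probe sets 7 in the cortex, 9 in the hippocampus and 9 in the cerebellum had Ts1Cje arrays wholly above disomic arrays, beside 6.68%, 8.53% and 4.65% of all probe sets. Those wholly below numbered 1, 0 and 0, beside 3.47%, 6.17% and 4.89%. H2-D1 1425545_x_at differed by 0.81 in the cortex, 1.02 in the hippocampus and 0.39 in the cerebellum. Its cerebellar values of 10.42, 10.94 and 10.18 in Ts1Cje overlapped those of 10.08, 9.95 and 10.33 in disomic mice. Without the dim arrays the H2-K1 1451931_x_at difference was 0.71 in the cortex and 0.95 in the hippocampus, and that of H2-D1 1425545_x_at 0.54 and 0.93.

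B2m differed at P84 by 0.93 in the cerebellum, 0.80 in the hippocampus and 0.30 in the cortex (1449289_a_at). Its cerebellar values were 10.29, 11.13 and 10.75 in Ts1Cje, against 9.92, 9.76 and 9.70 in disomic mice. Without the dim arrays the B2m difference was 0.85 in the hippocampus and 0.23 in the cortex. Tapbp differed by 0.31 in the cerebellum, 0.03 in the hippocampus and 0.13 in the cortex, the last 2 being -0.14 and -0.05 without the dim arrays. H2-K1 1425336_x_at differed by 1.15 in the cerebellum, 1.16 in the hippocampus and 0.69 in the cortex, and by 1.04 and 0.28 in the last 2 without the dim arrays. The cerebellum read 5.0, 5.77 and 5.49 in Ts1Cje, against 4.14, 4.31 and 4.35 in disomic mice. By count, 1 member probe set in the cerebellum, 1 in the hippocampus and 0 in the cortex lay past the criteria used above, beside 0.111%, 0.071% and 0.0443% of all probe sets, and these counts describe the contrast that chose the members.

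**Figure D3:**
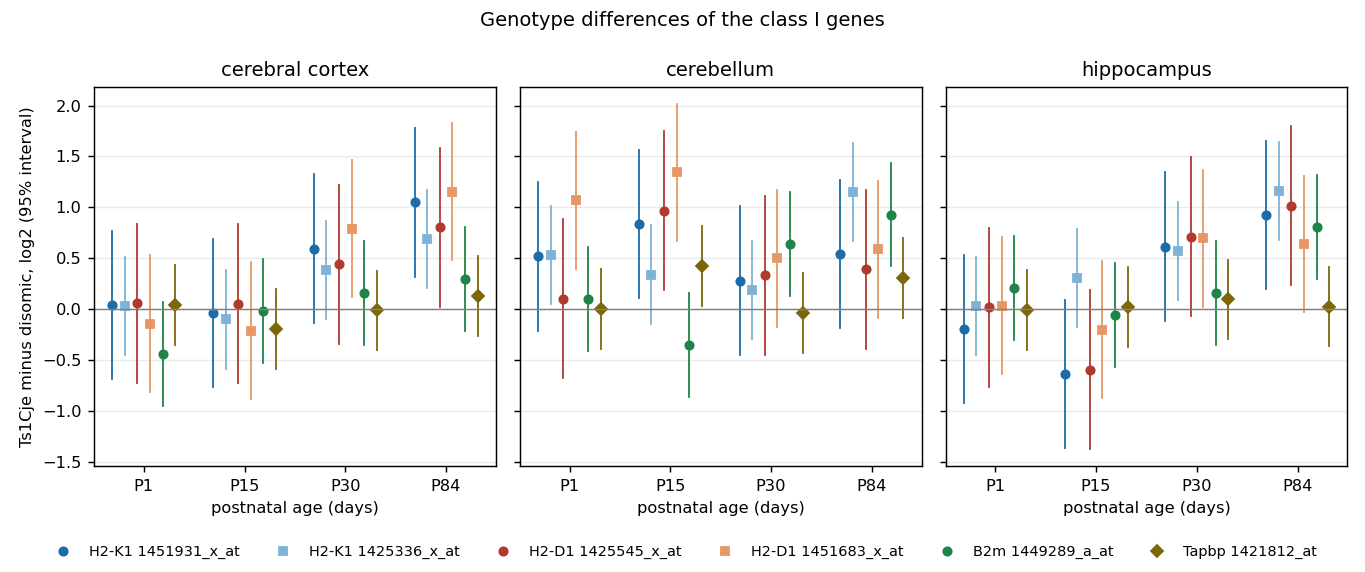
Ts1Cje minus disomic log2 differences (y axis, with 95% intervals from limma, n = 3 per group) by age (x axis) and region for 6 member probe sets. The heavy-chain points lie above 0 at P30 and P84 in each region; at P15 they are moved up in the cerebellum and down in the hippocampus by the displaced arrays.

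Arrays of one cortical group that were high in H2-D1 were also high in B2m. Over the 24 cortex arrays, taken as deviations from their group means, H2-D1 1425545_x_at and B2m 1449289_a_at correlated at r = 0.827 and rho = 0.820 (permutation test, two-sided, 100000 resamples, p adjusted over 15 relations = 0.00015 for both). Without the 2 arrays farthest from the median r was 0.821, and without the 6 P1 arrays, which spread widest, 0.670 (n = 18). On these P1 arrays the meningeal mean ranged from 2.69 to 7.57 in Ts1Cje and from 4.26 to 7.49 in disomic mice. Its relation with H2-D1 was not tested. H2-D1 also followed the mean of Ifi27 and Ifitm3, the 2 interferon-stimulated genes of the list with a mean of at least 5 (r = 0.829, rho = 0.790, both adjusted p = 0.00015; r = 0.735 without the 2 farthest arrays and 0.657 without P1). Its relation with the mean of the 3 brightest endothelial genes was r = 0.726 (rho = 0.742, permutation, adjusted p = 5.25e-04 and 2.50e-04; 0.597 without the 2 farthest). That with 6 microglial genes was r = 0.628 but rho = 0.378 (permutation, adjusted p = 0.00288 and 0.19), and that with Tapbp r = 0.368 (rho = 0.335, permutation, adjusted p = 0.13 and 0.234). Deviations of 3 arrays from their own mean sum to 0, so these points are not fully independent. The permutations also exchanged arrays across ages of unlike spread, so their p-values can be too small. Group means were kept from all arrays when single arrays were left out, so a left-out array still shifted the deviations of its groupmates. The values without the 2 farthest arrays or without the arrays that stand apart are therefore not free of those arrays. Of the same relations in the other 2 regions, that of H2-D1 with Tapbp in the cerebellum passed by both measures, at r = 0.522 (rho = 0.505, permutation, adjusted p = 0.0201 and 0.0487), 0.692 without the 2 farthest arrays and 0.444 without the arrays that stand apart. With the microglial genes H2-D1 gave r = -0.827 in the hippocampus, opposite in sign to the cortex, but rho = -0.369 (permutation, adjusted p = 5.25e-04 and 0.19), with r = -0.462 without the 2 farthest arrays and -0.627 without the arrays that stand apart (n = 22). In the cerebellum that relation was r = -0.584 and rho = -0.172 (permutation, adjusted p = 0.0201 and 0.697), with r = 0.0137 without the 2 farthest arrays. The other relations there missed an adjusted p of 0.05 by both measures (permutation).

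**Figure D4:**
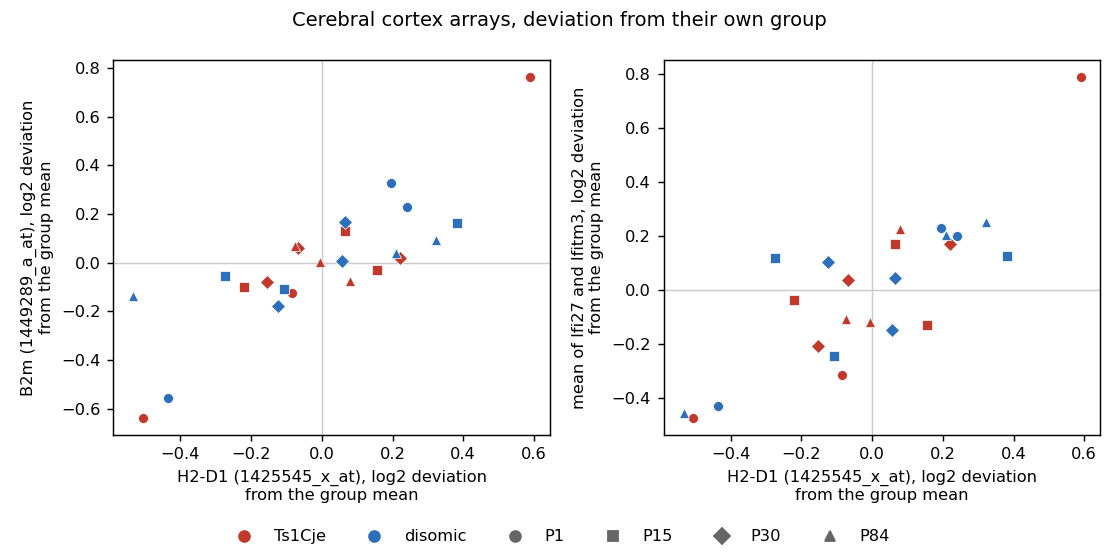
Deviation of each cerebral cortex array from its group mean (log2) for H2-D1 (x axis) against B2m and against the mean of Ifi27 and Ifitm3 (y axes); colours are genotypes and symbols ages, 24 arrays. The points run from lower left to upper right in both panels, the P1 arrays spread widest, and r without the P1 arrays is 0.670 for B2m and 0.657 for the 2 interferon-stimulated genes (n = 18).

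The genes whose group means ran most like the heavy chains were Patj, Mreg, Steap2, Shf and Hpcal1, the same 5 for H2-K1 and for H2-D1 (r = 0.94 to 0.952 over 24 group means, among 7753 genes with a mean of at least 5). For B2m they were Rab28 (0.948), Pttg1 (0.94), Snhg11 (0.931), Map7d2 (0.921) and Il33 (0.912), and both signs of slope with age and region enter such a value.

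Other parts of the class I machinery did not share one direction with age. Each gene was taken by its brightest probe set, and between P1 and P84 18.4%, 18.3% and 17.2% of all genes were called lower in cortex, cerebellum and hippocampus. Calr, the chaperone calreticulin, was higher at P84 in all 3 regions (1.13 in the cerebellum, SE 0.11, adjusted p = 3.27e-13), and Tapbpl, a tapasin relative, in the cortex. Psme1, a subunit of the proteasome activator, was lower in all 3 regions, by -2.95 in the cerebellum (SE 0.15, adjusted p = 4.31e-24), and the other measured genes of this list of peptide supply and loading (7 measured of 8) were not called. The constitutive proteasome subunits Psmb5, Psmb6 and Psmb7, whose places Psmb8 and Psmb9 can take along with Psmb10, were called lower in 3 of 3 cases in the cerebellum, 2 of 3 in the cortex and 1 of 3 (Psmb6) in the hippocampus. Psmb6 fell by 1.01 in the cerebellum, by 0.90 in the hippocampus and by 1.19 in the cortex. Of 10 measured heavy chains and related molecules among 17, H2-M3 was higher in the cortex (0.74, from below the array median) and the lipid-presenting Cd1d1 was lower in all 3 regions (-4.70 in the cerebellum).

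Among 12 measured regulators of class I transcription of 14 listed, Irf2, an interferon regulatory factor, was higher at P84 in all regions, at 2.45 in the cortex, 1.70 in the hippocampus and 1.24 in the cerebellum. Irf1 (0.66) and Irf8 (0.53, below the array median on average) were called higher in the cortex only among these tests, and the difference from the other regions was not tested. Rela, Rfxap and Nfya were lower in cortex and hippocampus and Nfyb in the cerebellum, while Rfxank and Nfyc were higher in the cerebellum. Nlrc5, the class I transactivator, averaged 1.82 and was not called.

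Microglial genes rose with age in cortex and hippocampus, where B2m rose most, and ran against the heavy chains by region. Of 11 measured, 10 were higher at P84 than at P1 in the cortex, 9 in the hippocampus and 1 (Ctss) in the cerebellum, beside 15.6%, 13.7% and 15.3% of all genes. The mean of the 6 bright microglial genes lay at 8.0 in Ts1Cje and 7.91 in disomic cortex at P15, against 5.47 in Ts1Cje and 5.27 in disomic cortex at P1. In the cerebellum its group means lay between 5.54 and 6.46 at all ages, the P15 disomic mean of 6.39 including the displaced array. Averaged over ages, 10 of the 11 were lower in the cerebellum than in the cortex (17.7% of all genes), the regional order opposite to that of H2-K1 and H2-D1. B2m 1449289_a_at did not follow the microglial genes in the cerebellum, where it rose by 0.97 from P1 to P84. Its difference between cerebellum and cortex over ages was 0.02. By genotype none of the 11 was called at any age. Their part in the B2m and heavy-chain results was not tested.

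Interferon-stimulated genes other than the members were mostly dim, with 16 of 28 measured (31 listed) below the array medians on average. At P84 16 were higher than at P1 in the cerebellum, 12 in the cortex and 9 in the hippocampus, and none was lower (15.3%, 15.6% and 13.7% of all genes were higher). Ifi27 was 2.58 higher in the cerebellum, 2.08 in the cortex and 3.03 in the hippocampus. By region 1 was higher and 4 lower in the cerebellum than in the cortex (17.2% and 17.7% of all genes), and both heavy chains were higher. Between genotypes at P84, a description, 13 were higher by the criteria in the cerebellum (0.154% of all genes) and none in the hippocampus (0.0934%) or cortex (0.0605%). The mean of Ifi27 and Ifitm3 in the P84 cerebellum ranged from 7.73 to 8.81 in Ts1Cje, against 6.73 to 6.91 in disomic mice.

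The interferon receptor genes Ifnar1, Ifnar2 and Ifngr2 lie in the triplicated segment, and only Ifnar1 and Ifnar2 are given here, for cortex and cerebellum. The paper reports Ifngr2 as raised in the cerebellum alone, so the values below do not stand for all triplicated receptors. Averaged over P1, P15 and P30 Ifnar2 was 1.01 higher in Ts1Cje cortex (SE 0.16, adjusted p = 1.64e-04) and 0.98 higher in Ts1Cje cerebellum (adjusted p = 1.75e-04), and Ifnar1 was 0.99 and 0.97 higher there (adjusted p = 0.00572 and 0.00588), where 0.148% and 0.192% of all genes were called higher. Over the same ages the members were not called, apart from the H2-D1 probe set above.

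Markers of lymphocytes were near the floor. Of 9 T and NK cell genes, 7 averaged below the array medians and 6 lay below the median on every array, and none was called by age or region. All 7 measured class II presentation genes averaged below the array medians; Cd74 and H2-Ab1 in the cortex, Cd74 and H2-Aa in the cerebellum and H2-Aa and H2-DMa in the hippocampus were higher at P84. Of 10 endothelial genes, 3 were higher at P84 in the cortex, 3 in the hippocampus and 2 in the cerebellum (15.6%, 13.7% and 15.3% of all genes), and none differed between cerebellum and either other region; their part in the class I results was not tested.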

How the data were processed

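RNA of 72 samples was hybridised to Affymetrix whole-genome mouse arrays. The authors deposited log2 values made with gcRMA, which corrects background by probe base composition and normalizes across arrays; which version of it was run the sources used here do not state. The values were used as deposited, without pooling, and compression near the floor can understate differences of dim probe sets.

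In R 4.3.3, limma 3.58.1 estimated one mean for each of the 24 groups, which left 48 residual degrees of freedom (51.27 with the prior). Calls needed a moderated t of size 4 or more and an adjusted p (Benjamini-Hochberg, all 45101 probe sets) no higher than 0.05. Of these, 34958 had 1 gene symbol in the platform annotation. Probe sets with several symbols named no gene. Simulated P30 cerebellum data gave calls for 8.96%, 40.3% and 84.8% of probe sets changed by 0.58, 1 and 2.

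The members and lists were chosen with earlier results of these data known. Genes named are members, called list genes and the 5 most similar genes. The labels call the replicates biological; 3 per group limit the precision, and arrays give no count depth. Alternatives covered filters, array weights, arrays left out, a replicate block and fits per region.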

Additional observations from a re-analysis of the deposited data

Results flagged for a closer look

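Differences between regions in the P1 to P84 change passed the test in 8 cases. For cerebellum minus cerebral cortex they were H2-K1 1451931_x_at (1.48), H2-D1 1451683_x_at (1.87), B2m 1449289_a_at (-1.65) and B2m 1452428_a_at (-1.32). For cerebellum minus hippocampus they were H2-K1 1451931_x_at (1.57), H2-D1 1451784_x_at (1.43), H2-D1 1451683_x_at (2.22) and H2-D1 1426324_at (1.23). Each is the change in the cerebellum less that in the other region, on the log2 scale, and the report gives the calls that were lost with replicates left out for the first 4; for the rest, H2-K1 was called in 3 of 6, 1451784_x_at in 2, 1451683_x_at in 6 and 1426324_at in 3.

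In the cerebral cortex every Ts1Cje array of Psmb8 1422962_a_at was below every disomic array at P1 (-0.11) and above every disomic array at P30 (0.10). This change of direction with age was not tested, and all of these values lay below the array median.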

How the results depend on the processing

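Counts of called member probe sets depended on the criterion, the filter, array weights and the arrays that stand apart. The shares of all probe sets called under the alternatives in this section are not given. A changed count is therefore not read as a result about the members. With a mean of at least 5 required, 6 member probe sets are left to test, and the counts were 15 of the 30 age calls, 7 of the 14 region calls, 6 in the cerebellum, 2 in the cortex and 2 in the hippocampus for P84 minus P1, 4 for cerebellum minus cortex, 3 for cerebellum minus hippocampus, 0 for the P1 to P30 average and 0 of the 2 at P84. With the adjusted p alone as criterion they were 56 for age, 22 for region, 11 in the cortex and 9 in the hippocampus for P84 minus P1, and 12 for cerebellum minus hippocampus. Without the 5 arrays that stand apart they were 46 for age, 10 for P84 minus P1 in the cortex and 5 for genotype at P84; array weights gave 50, 10 and 5, and 10 for cerebellum minus hippocampus. Without the 2 displaced arrays 1 genotype call appeared at P1 to P30 (H2-D1 1451683_x_at in the P1 cerebellum, adjusted p = 0.0293) and 4 at P84. Without the 3 dim arrays the P1 to P30 average gave 0. One fit per region gave 0 for that average, 1 at P84 and 10 for P84 minus P1 in the cortex, and gives no comparison of regions. Without the filter 9 of the 15 most similar genes were shared. No called difference changed direction. Uncalled genotype differences did without the 5 arrays, among them H2-K1 1451931_x_at in the P1 cerebellum (-0.02, against 0.52 with all arrays). Others were at P15 in the hippocampus, for H2-D1 1425545_x_at (0.19, against -0.59) and H2-K1 1451931_x_at (0.06, against -0.64). At P84 Tapbp changed direction in the cortex (-0.05, against 0.13) and hippocampus (-0.14, against 0.03).

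Leaving out each replicate number of a genotype in turn gave 0 to 2 genotype calls at P1 to P30, 0 to 4 at P84, 0 to 1 for the average, 0 for differences between regions, 27 to 44 for age (5 to 10 in the cortex, 9 to 12 in the cerebellum and 4 to 6 in the hippocampus for P84 minus P1), 11 to 18 for region (6 to 8 and 5 to 7), 3 to 10 for the difference of the age change between regions (lowest 3, highest 10) and 9 to 12 for disomic mice alone.

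Samples with the same replicate number deviated together (r over 0.1) in 24 of 36 pairs of groups and in 50 of 72 pairs of regions (median r 0.298). The labels do not say that a number marks a shared mouse or litter, and not every pair passed, so the number was not taken to pair them. With the replicate block the counts were 0, 2, 1 and 0 for the genotype results, 25 for age, 14 for region, 5, 10 and 4 for P84 minus P1 in cortex, cerebellum and hippocampus, 8 and 6 for the 2 cerebellar region contrasts, 6 for the difference of the age change and 8 for disomic mice alone. The block lost the call of the age change for H2-K1 1451931_x_at between cerebellum and cortex and for H2-D1 1451784_x_at between cerebellum and hippocampus, and gave 3 calls in the disomic cerebellum, against 6 without it.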
